A study of Mus musculus with 19 samples.

Results

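The taste effector genes described here encode the enzyme, calcium release channels, cation channels and large-pore channels that act downstream of G protein-coupled taste receptors. The 9 genes were chosen by symbol: Plcb2, Itpr1, Itpr2, Itpr3, Trpm5, Trpm4, Calhm1, Calhm2 and Calhm3. Of these, 8 were among the 26221 rows of the authors' normalized table, and all 8 were tested. Calhm3 had no row in the count or normalized tables as used here and is described from the single-library files alone.

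The genes were measured by bulk RNA sequencing in 19 libraries of sorted nasal epithelial cells of naive ChAT(BAC)-eGFP mice. All libraries came from this 1 transgenic strain, in which enhanced green fluorescent protein (eGFP) is driven by a bacterial artificial chromosome carrying Chat regulatory sequence, so that eGFP reports the transgene and not the Chat product itself. The FSChi group (5 libraries) held CD45-EpCAM+ cells with eGFP and high forward and side light scatter. The FSClow group (9 libraries) held eGFP+ cells with low scatter, and the EpCAM group (5 libraries) held CD45-EpCAM+ cells without eGFP. The labels give neither age nor sex, nor do they tell whether replicate libraries stem from different mice. The p-values here thus reflect the variation among libraries, part of which may be technical. Total counts per library were between 1348428 and 7477695.

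In type II taste cells, a bitter, sweet or umami receptor releases G protein subunits that activate phospholipase C beta 2 (Plcb2). Its product, inositol trisphosphate (IP3), opens IP3 receptors (Itpr genes) in the endoplasmic reticulum, and the released calcium opens the monovalent cation channel Trpm5. The depolarised cell then releases ATP through a channel built of Calhm1 and Calhm3. Brush cells, also called tuft or solitary chemosensory cells, use much of the same cascade in the airways and gut.

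The sort was checked against marker lists. The summed level of 10 brush or tuft cell markers (Trpm5 among them) was 6819 to 11168 CPM (counts scaled to equal library size) in FSChi libraries and 8161 to 11570.5 CPM in FSClow libraries, against 11.6 to 24.7 CPM in EpCAM libraries. FSChi libraries also carried markers of other epithelial cells. The summed level of 10 olfactory sensory neuron markers was 20.1 to 3546 CPM in FSChi libraries and 17.6 to 120 CPM in FSClow libraries, against 3555 to 6089.9 CPM in EpCAM libraries. For 5 secretory cell markers the ranges were 427 to 13153 CPM in FSChi libraries, 15.8 to 246 CPM in FSClow libraries and 6720.2 to 17092 CPM in EpCAM libraries. FSChi replicate 2 had the lowest neuron and secretory sums of its group, and it was also the shallowest library of the series. Other lists were lower: the basal cell sum reached 1721 CPM in FSChi libraries, the ionocyte sum 886 CPM and the leukocyte sum 597 CPM. Cd3e, a T cell marker, was at 0 in every library. In sorted bulk samples, fewer cells of a type and less RNA per cell cannot be told apart.

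Plcb2 and Trpm5, the enzyme and the channel at the start and end of the calcium cascade, were both abundant in FSChi and FSClow libraries and almost absent from EpCAM libraries. Itpr2 was also higher in both eGFP+ groups than in EpCAM libraries. The eGFP+ groups differed in the other genes: Itpr3, Calhm1 and Calhm2 were higher in FSChi than in FSClow libraries, and Itpr1 and Itpr2 were lower. Calling a gene at an adjusted p under 0.05 (edgeR quasi-likelihood test, Benjamini-Hochberg adjustment over all 13340 genes tested), 5 members were higher and 1 lower in FSChi than in EpCAM libraries, where 25.6% of all genes were called (13.5% higher, 12.2% lower). In FSClow against EpCAM libraries, 3 members were higher and 2 lower, where 45.1% of all genes were called (22.0% higher, 23.1% lower). Calhm2, among those lower, passed the filter on low counts only with FSChi libraries in the fit. The same holds for Calhm1, which is among the members called higher in FSChi than in either other group. In FSChi against FSClow libraries, 3 members were higher and 2 lower, where 24.8% of all genes were called (15.5% higher, 9.30% lower). The median log2 fold change of the 8 members was 2.25 in FSChi against EpCAM, with -0.02 over all genes. It was -0.57 in FSClow against EpCAM, with 0.05 over all genes, and 0.23 in FSChi against FSClow, with -0.01 over all genes. Scaling by relative log expression in place of TMM moved the all-gene medians to -0.14, -0.14 and 0.06 in the same 3 comparisons. The comparisons share libraries and are not independent of each other.

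**Figure D1:**
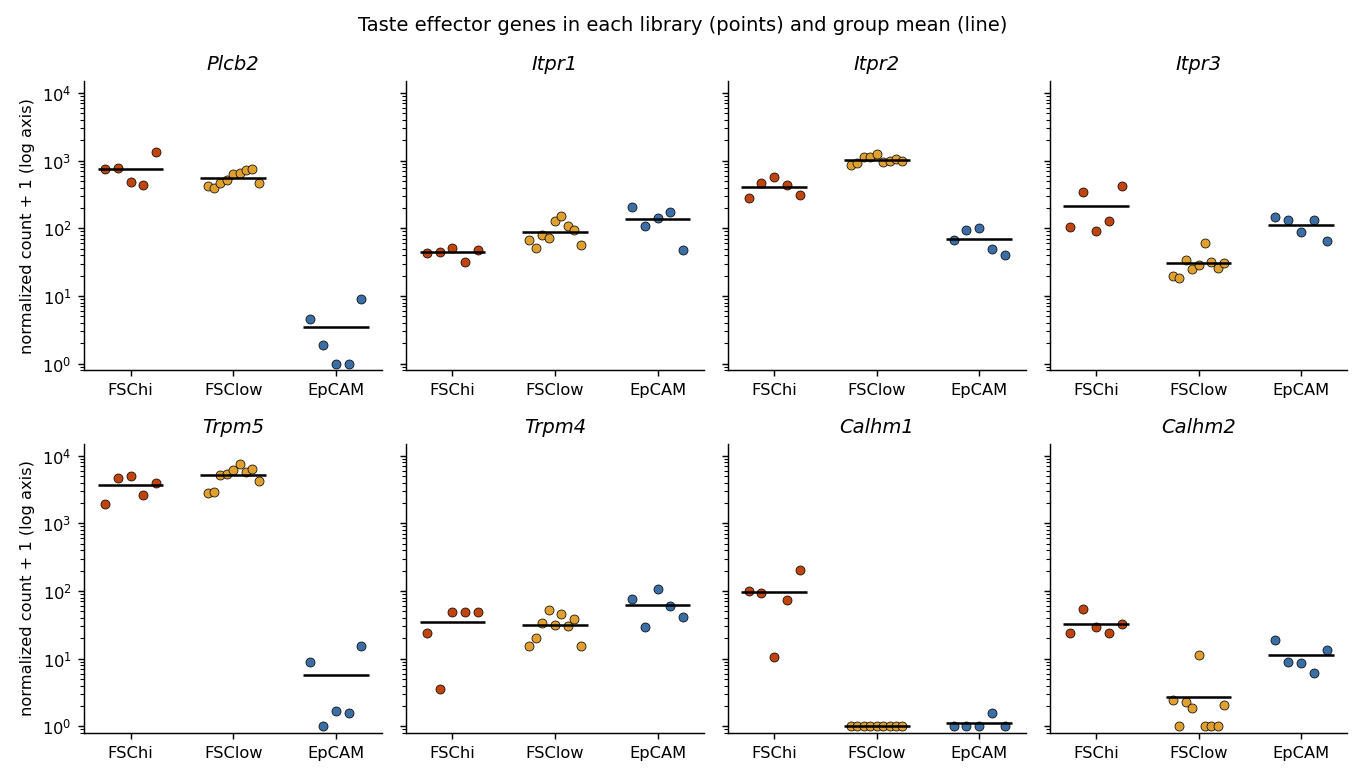
Authors' normalized count plus 1 (log axis) of 8 taste effector genes in each library (points), with the group mean (line), for FSChi (n = 5), FSClow (n = 9) and EpCAM (n = 5) libraries. Plcb2 and Trpm5 separate both eGFP+ groups from EpCAM libraries, Calhm1 separates FSChi libraries from all others, and Itpr2 and Itpr3 are ordered oppositely in the 2 eGFP+ groups.

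The region before the transcription start is shown for 5 members whose levels followed different group patterns: Trpm5 and Plcb2 (high in both eGFP+ groups), Itpr2 (highest in FSClow), Itpr3 (lowest in FSClow) and Calhm1 (FSChi). Each is the stretch of 250 bases before the RefSeq start in assembly GRCm38.p6 (mm10), on the gene's strand. Starts are those of the RefSeq promoter table, whereas the gene intervals given with each member come from the RefSeq gene table, and the Itpr3 window lies inside its gene interval and the Plcb2 and Itpr2 windows overlap theirs in part. Capitals mark matches to 3 motifs searched on both strands: the octamer ATGCAAAT, the TATA box core TATAA and the CCAAT box CCAAT.
Trpm5 promoter, chr7:143094643-143094892, minus strand: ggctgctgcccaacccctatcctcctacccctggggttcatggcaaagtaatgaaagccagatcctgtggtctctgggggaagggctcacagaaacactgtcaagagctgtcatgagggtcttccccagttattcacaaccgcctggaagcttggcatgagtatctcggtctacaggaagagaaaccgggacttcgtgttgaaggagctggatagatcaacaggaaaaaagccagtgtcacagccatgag
Plcb2 promoter, chr2:118728439-118728688, minus strand: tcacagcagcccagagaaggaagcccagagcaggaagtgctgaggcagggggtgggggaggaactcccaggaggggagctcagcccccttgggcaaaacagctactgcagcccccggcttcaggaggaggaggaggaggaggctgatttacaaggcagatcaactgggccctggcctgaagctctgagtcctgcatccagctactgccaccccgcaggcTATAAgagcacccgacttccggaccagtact
Itpr2 promoter, chr6:146502224-146502473, minus strand: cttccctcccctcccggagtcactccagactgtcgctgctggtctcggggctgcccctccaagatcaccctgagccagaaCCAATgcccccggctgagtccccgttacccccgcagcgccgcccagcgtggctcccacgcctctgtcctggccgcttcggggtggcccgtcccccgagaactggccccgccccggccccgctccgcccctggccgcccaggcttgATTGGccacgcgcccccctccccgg
Itpr3 promoter, chr17:27057054-27057303, plus strand: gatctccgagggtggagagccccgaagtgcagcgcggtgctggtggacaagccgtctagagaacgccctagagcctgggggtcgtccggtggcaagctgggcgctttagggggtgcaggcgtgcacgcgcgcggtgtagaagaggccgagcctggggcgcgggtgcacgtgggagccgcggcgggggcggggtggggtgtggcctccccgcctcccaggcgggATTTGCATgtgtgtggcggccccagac
Calhm1 promoter, chr19:47144175-47144424, minus strand: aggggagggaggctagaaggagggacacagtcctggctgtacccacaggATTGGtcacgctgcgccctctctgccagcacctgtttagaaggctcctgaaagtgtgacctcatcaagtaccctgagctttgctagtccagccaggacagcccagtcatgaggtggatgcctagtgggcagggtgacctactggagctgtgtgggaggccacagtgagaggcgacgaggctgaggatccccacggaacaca

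The Itpr3 window held an octamer on the opposite strand, whose first base lay 27 bases before the start used in that table. The octamer is the motif recognised by POU-domain factors, and it was present in 1.60% of the 32851 promoters of the RefSeq table. TATAA was found in the Plcb2 window alone among these genes, 31 bases before the start, and in 22.8% of all promoters. A CCAAT box was found at 2 places in the Itpr2 window and at 1 in the Calhm1 window, and in 33.9% of all promoters. The Trpm5 and Calhm2 windows held none of these letters. Base composition split the genes as well: the windows of Itpr2 and Itpr3 were 74.4% and 72% G or C with 22 and 25 CpG dinucleotides, while that of Trpm5 was 52.8% with 4, close to the medians of 52.4% and 6 over all promoters. Plcb2 (62%, 4 CpG), Calhm1 (59.6%, 5 CpG) and Calhm2 (64.4%, 8 CpG) lay between in G or C share, with CpG counts near that of Trpm5.

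Plcb2 (Entrez 18796, chr2:118705003-118728661) cleaves a membrane phospholipid into IP3 and diacylglycerol. Its normalized count was 744, 783, 486, 429 and 1319.9 in FSChi replicates 1 to 5, and its lowest, median and highest FSClow values were 398, 515 and 747. In EpCAM replicates 1 to 5 it was 3.56, 0.866, 0, 0 and 8.05. Every eGFP+ library was above every EpCAM library, and the 2 eGFP+ groups overlapped. Plcb2 was higher in FSChi than in EpCAM libraries by 8.19 in log2, with an SE of 0.59 (edgeR quasi-likelihood adjusted p = 4.4e-10; errors of log2 fold changes are SEs throughout), and in FSClow than in EpCAM libraries by 7.82 ± 0.58 (edgeR adjusted p = 2.3e-10). Between FSChi and FSClow it differed by 0.36 ± 0.35 (edgeR adjusted p = 0.50), within the spread between libraries. The size of the fold against EpCAM rested on EpCAM replicate 5: without it the log2 values were 9.51 for FSChi and 9.15 for FSClow.

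Set beside the other phospholipase C beta genes on the TPM scale, which divides by transcript length, Plcb2 made up 71.6 ± 11.8% of the family in FSChi files (SD, n = 4) and 79.0 ± 4.18% in FSClow files (n = 9). Its share was 1.48 ± 2.65% in EpCAM files (n = 5). There Plcb4 held 74.4 ± 6.96% of the family TPM and Plcb3 18.7 ± 6.36%. The gap was smaller in normalized counts, which are not divided by length: 157 ± 92.8 for Plcb4 and 107 ± 35.2 for Plcb3 in EpCAM libraries (SD). The relatives divided the eGFP+ groups where Plcb2 did not. Plcb4 and Plcb1 were higher in FSChi than in FSClow libraries by 3.05 ± 0.42 (edgeR adjusted p = 7.9e-06) and 3.70 ± 0.88 (edgeR adjusted p = 0.0032) on the log2 scale, and Plcb3 was lower by -1.41 ± 0.22 (edgeR adjusted p = 3.1e-05). Plcb1 and Plcb4 are expressed in neurons, and the neuron marker sum was higher in 4 of 5 FSChi libraries than in any FSClow library. The exception, FSChi replicate 2 with a sum of 20.1 CPM, had a Plcb4 normalized count of 38.3, from 15 counts. This was the lowest of its group and above the highest FSClow value of 15.2. The part of neurons in these differences was not tested.

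The 3 IP3 receptor genes followed 3 different patterns. All encode calcium channels of the endoplasmic reticulum; Itpr3 is the form of the type II taste cell, while Itpr1 is the main form of the brain. Itpr3 (Entrez 16440, chr17:27057002-27122223) had normalized counts of 103, 339, 88.7, 129 and 421 in FSChi replicates 1 to 5, and 17.6, 27.5 and 59.7 as lowest, median and highest FSClow values. In EpCAM replicates 1 to 5 it had 145, 129.8, 88.2, 130.2 and 64.4. All FSChi and all EpCAM libraries were above all FSClow libraries, and FSChi replicates 2 and 5 alone exceeded every EpCAM library. Exons of Itpr3 share 233 bases with the antisense gene Itpr3os. Itpr3 was higher in FSChi than in FSClow libraries by 2.79 ± 0.34 on the log2 scale (edgeR adjusted p = 1.7e-06), and lower in FSClow than in EpCAM libraries by -1.68 ± 0.34 (edgeR adjusted p = 0.00021). FSChi against EpCAM gave 1.10 ± 0.38 (edgeR adjusted p = 0.035), a call that did not last. It was lost in 10 of 12 alternative analyses, among them the RSEM counts (0.71, adjusted p = 0.21) and log2(TPM + 1) with limma (0.32, adjusted p = 0.64), and when 1 of 8 libraries was left out. The single-library files behind the RSEM and TPM values hold no match to FSChi replicate 5, and in the count table the difference without that library was 0.65 (edgeR adjusted p = 0.22). Where others were left out, it was 0.89 without FSChi replicate 2 (edgeR adjusted p = 0.11), and without EpCAM replicates 3, 5, 4 and 1 in turn the adjusted p was 0.10, 0.078, 0.067 and 0.0501. Leaving out FSClow replicates 4 and 7 gave 0.052 and 0.051.

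Itpr2 (Entrez 16439, chr6:146108299-146502258) had the reverse order in the eGFP+ groups. Its normalized count was 283, 459, 575, 433 and 307 in FSChi replicates 1 to 5, while FSClow libraries had 858, 999 and 1249 as lowest, median and highest. EpCAM replicates 1 to 5 had 65.6, 94.3, 99.3, 47.8 and 39.2. No groups overlapped: every FSClow library was above every FSChi library, and every FSChi library above every EpCAM library. Itpr2 was higher than in EpCAM libraries by 2.74 ± 0.24 in FSChi (edgeR adjusted p = 7.3e-09) and by 4.14 ± 0.25 in FSClow libraries (edgeR adjusted p = 4.9e-12) on the log2 scale. In FSChi against FSClow libraries it was lower, by -1.40 ± 0.21 (edgeR adjusted p = 2.9e-05). These 3 calls lasted in every alternative analysis run, leaving out each library included.

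Itpr1 (Entrez 16438, chr6:108213083-108551116) was lowest in the FSChi group. FSChi replicates 1 to 5 had normalized counts of 42.9, 43.4, 50.8, 31.1 and 47.4, and FSClow libraries had 50.7, 78.5 and 149.7 as lowest, median and highest. EpCAM replicates 1 to 5 had 205, 106, 142, 173 and 47.3. FSChi libraries varied little and lay at the low end of both other groups, overlapping FSClow only through replicate 3 and EpCAM only through EpCAM replicate 5. The log2 fold change was -1.47 ± 0.33 in FSChi against EpCAM (edgeR adjusted p = 0.0021) and -1.09 ± 0.30 in FSChi against FSClow (edgeR adjusted p = 0.010). In FSClow against EpCAM it was -0.37 ± 0.28 (edgeR adjusted p = 0.30). The FSChi difference from EpCAM was lost on the log2(TPM + 1) and log2(TPM + 0.1) scales (-0.87 and -1.05, limma adjusted p = 0.30 and 0.29) and with only the libraries that match their own file (-1.32, edgeR adjusted p = 0.11). The matching libraries are FSChi replicates 1 and 2, all FSClow libraries and EpCAM replicates 3 to 5, so this setting also has fewer libraries. The difference from FSClow was lost with RSEM counts (-0.92, edgeR adjusted p = 0.061), on the same TPM scales (-1.17 and -1.40, limma adjusted p = 0.12 and 0.11) and with matching libraries only (-1.03, edgeR adjusted p = 0.17).

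**Figure D2:**
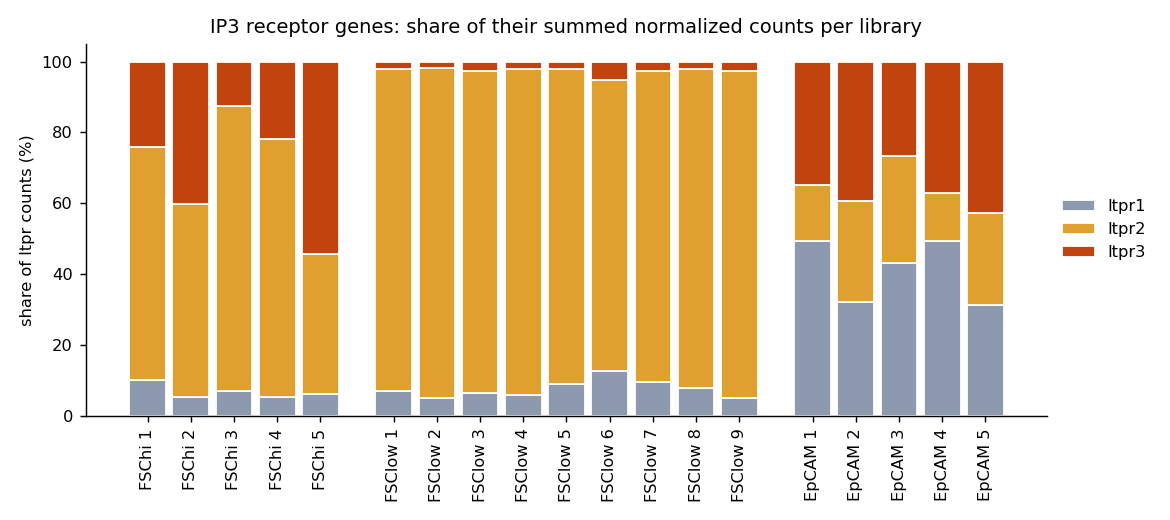
Share (%) of the summed normalized counts of Itpr1, Itpr2 and Itpr3 held by each gene, 1 stacked bar a library, for FSChi, FSClow and EpCAM libraries. Itpr2 fills 82.2 to 93.1% of each FSClow bar and 39.6 to 80.5% of each FSChi bar, and Itpr3 holds 12.4 to 54.3% in FSChi, 1.77 to 5.08% in FSClow and 26.8 to 42.7% in EpCAM bars.

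The make-up of the IP3 receptor pool, shown by library in the stacked bars, differed between the groups. Per summed normalized count, Itpr3 held 30.6 ± 16.7% in FSChi libraries (SD, n = 5) and 2.55 ± 1.02% in FSClow libraries (n = 9), against 36.2 ± 5.98% in EpCAM libraries (n = 5). Itpr2 held 62.7 ± 16.1% in FSChi, 89.9 ± 3.32% in FSClow and 22.8 ± 7.61% in EpCAM libraries. FSChi libraries disagreed most among themselves: Itpr3 held 54.3% in replicate 5 and 12.4% in replicate 3. Dividing counts by the longest coding transcript left the same order, with Itpr3 at 35.3 ± 17.8% in FSChi, 3.24 ± 1.26% in FSClow and 39.7 ± 6.35% in EpCAM libraries. On the TPM scale the Itpr3 share was 8.11 ± 4.77% in FSChi files (n = 4), 0.70 ± 0.42% in FSClow and 22.8 ± 5.41% in EpCAM files. In these files RSEM assigned Itpr2 an effective length of 1698 to 3991 bases, against 11679 bases for its longest coding transcript.

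Trpm5 (Entrez 56843, chr7:143071529-143094642), the calcium-activated cation channel of taste and tuft cells, was the most abundant member on the TPM scale in both eGFP+ groups. Normalized counts of Trpm5 were 1957, 4649, 4935, 2586 and 4001 in FSChi replicates 1 to 5, and 2776, 5267 and 7509.9 as lowest, median and highest FSClow values. EpCAM replicates 1 to 5 had 7.84, 0, 0.689, 0.576 and 14.6. All eGFP+ libraries were above all EpCAM libraries by a wide margin, and the eGFP+ groups overlapped. Trpm5 was higher than in EpCAM libraries by 9.58 ± 0.75 in FSChi (edgeR adjusted p = 2.1e-09) and by 10.14 ± 0.75 in FSClow libraries (edgeR adjusted p = 4.0e-10) on the log2 scale. Without EpCAM replicate 5 these were 10.75 and 11.30. Between FSChi and FSClow libraries the difference was -0.56 ± 0.45 (edgeR adjusted p = 0.40). Trpm5 was one of the brush cell markers above, and its exons overlap those of Tssc4 on the opposite strand by 220 bases. The strand used in counting is not given in the sources used here, so reads of the pair may not be separable. Per library the ratio of Trpm5 to Plcb2 counts was 5.56 ± 3.02 in FSChi and 9.08 ± 1.73 in FSClow libraries (SD).

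Trpm4 (Entrez 68667, chr7:45303155-45334071), the closest relative of Trpm5 and found in many tissues, did not pass the test in any comparison. Its normalized count was 22.9, 2.55, 47.8, 47.2 and 47.4 in FSChi replicates 1 to 5, and 14.2, 31.0 and 51.9 as lowest, median and highest FSClow values. EpCAM replicates 1 to 5 had 74.9, 28.6, 108, 58.2 and 40.3. The groups overlapped throughout. The lowest of all libraries was FSChi replicate 2, where the value was 1 count in the shallowest library of the series. The log2 fold change was -0.67 ± 0.46 in FSChi against EpCAM (edgeR adjusted p = 0.31), -0.77 ± 0.40 in FSClow against EpCAM (edgeR adjusted p = 0.12) and 0.11 ± 0.41 in FSChi against FSClow (edgeR adjusted p = 0.88). The FSClow difference passed with relative log expression scaling (edgeR adjusted p = 0.049), with DESeq2 (adjusted p = 0.042) and with only those 2 groups in the fit (edgeR adjusted p = 0.045).

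Within the TRPM family, Trpm5 held 88.0 ± 4.59% of the TPM in FSChi files (SD, n = 4) and 90.4 ± 3.21% in FSClow files, against 1.74 ± 1.75% in EpCAM files. The next was Trpm7, a widely expressed channel with a kinase domain, at 11.2 ± 4.03% in FSChi files, 9.03 ± 3.22% in FSClow files and 76.1 ± 6.28% in EpCAM files. Trpm4 held 0.72 ± 0.52% in FSChi, 0.42 ± 0.12% in FSClow and 12.0 ± 6.23% in EpCAM files.

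Calhm1 (Entrez 546729, chr19:47141035-47144174), a subunit of the ATP release channel of taste cells, was found almost only in FSChi libraries. Its normalized count was 99.7, 91.9, 9.48, 72.7 and 204.8 in FSChi replicates 1 to 5, from 487 counts in all. It was 0 in each of the 9 FSClow libraries. In EpCAM libraries it was 0 in 4 and 0.576 in replicate 4, which held 1 count. All FSChi libraries were above all others, and replicate 3 was the lowest of its group. Scaled for depth, FSChi had at least 216-fold more than FSClow libraries, taking 3 counts over the group as the floor, and 639-fold more than EpCAM libraries (exact 95% interval 114 to 25282, for counting error only). Both differences were called (edgeR adjusted p = 1.0e-06 against FSClow and 5.0e-06 against EpCAM). Calhm1 passed the filter on low counts only through the FSChi libraries, the group where it is high, so these calls add little to the counts themselves. FSClow against EpCAM gave an edgeR adjusted p of 0.48 in the fit of all 19 libraries, from 0 counts and 1 count. With only those groups in the fit Calhm1 was not tested. FSChi replicate 2, with the neuron marker sum at 20.1 CPM, had 91.9.

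Calhm2 (Entrez 72691, chr19:47132232-47138294), a broadly expressed relative, was also highest in the FSChi group. Normalized counts were 22.9, 53.6, 28.0, 23.0 and 31.2 in FSChi replicates 1 to 5, and 0, 0.896 and 10.3 as lowest, median and highest FSClow values. EpCAM replicates 1 to 5 had 17.8, 7.79, 7.58, 5.18 and 12.6. All FSChi libraries were above all libraries of the other groups. Calhm2 was higher in FSChi than in FSClow libraries by 4.20 ± 0.70 on the log2 scale (edgeR adjusted p = 8.2e-05) and lower in FSClow than in EpCAM libraries by -2.45 ± 0.71 (edgeR adjusted p = 0.0064). The FSClow against EpCAM call was lost with only the libraries that match their own file (-2.25, edgeR adjusted p = 0.072). Calhm2 passed the filter on low counts only through the FSChi libraries. With only FSClow and EpCAM libraries in the fit it was not tested, 6 members being left. Without the filter the FSClow against EpCAM difference was -2.52 (edgeR adjusted p = 0.0057). FSClow replicate 5 held most of the group's 13 counts, and without it the 2 differences were 5.68 and -3.99. In FSChi against EpCAM libraries the difference of 1.75 ± 0.71 missed the threshold (edgeR adjusted p = 0.071), but it passed with only those groups in the fit (adjusted p = 0.010), with log2(TPM + 1) in limma (adjusted p = 0.046) and without FSClow replicate 5 (adjusted p = 0.020). Exons of Calhm2 overlap those of Pdcd11 on the opposite strand by 436 bases.

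Calhm3 (Entrez 240669, chr19:47151699-47157764), the partner of Calhm1 in the taste cell channel, lies next to Calhm1 and Calhm2 on chromosome 19. RSEM gave it 117 expected counts over 4 FSChi files, 1 over the 9 FSClow files and 0 over the 5 EpCAM files. Scaled by the summed expected counts of the files, that was 7.34 CPM in FSChi, 0.0424 CPM in FSClow and 0 CPM in EpCAM files, where a count of 0 allows up to 0.130 CPM. The FSChi signal was uneven, since 1 file held 104 of the 117 and another held 0. No test was made. The other members of the family, Calhm4, Calhm5 and Calhm6, had 0 counts in FSChi libraries.

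**Figure D3:**
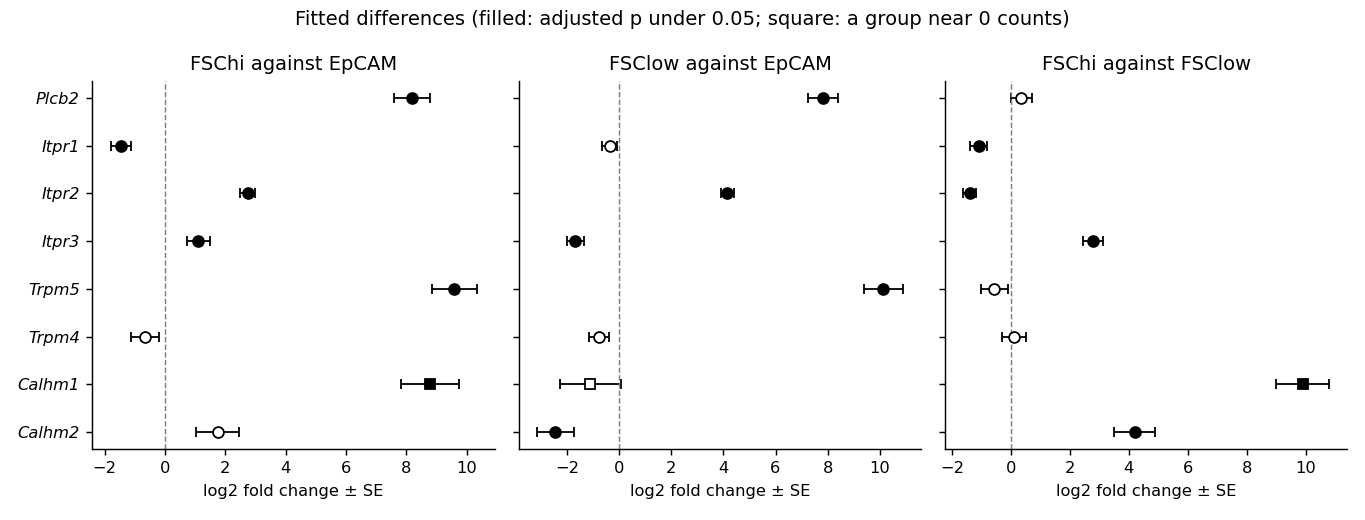
Fitted log2 fold change ± SE (edgeR) of 8 taste effector genes in FSChi against EpCAM, FSClow against EpCAM and FSChi against FSClow libraries; filled symbols have an adjusted p under 0.05. Squares mark Calhm1, where a group is at or near 0 counts and the fitted value depends on the prior count. Plcb2 and Trpm5 lie far right of 0 in the first 2 panels and have open symbols in the third, where Itpr3, Calhm1 and Calhm2 lie right and Itpr1 and Itpr2 left.

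On the length-scaled TPM, the order of the members in FSChi files (n = 4) was Trpm5 (mean 377), Itpr2 (74.0), Plcb2 (59.9), Calhm1 (20.7), Calhm3 (10.1), Itpr3 (6.97), Calhm2 (6.01), Itpr1 (3.69) and Trpm4 (2.61). In FSClow files (n = 9) it was Trpm5 (661), Itpr2 (210.2), Plcb2 (73.1), Itpr1 (10.7), Trpm4 (3.13), Itpr3 (1.48), Calhm2 (0.486), Calhm3 (0.0567) and Calhm1 (0). In EpCAM files (n = 5) the first were Itpr2 (8.76), Itpr1 (8.08), Trpm4 (5.47) and Itpr3 (4.72), whose ranges overlapped. The place of Itpr2 depends on the short effective length given above: per length of the longest coding transcript it held 19.4% of the IP3 receptor counts in EpCAM libraries, below Itpr1 (41.0%) and Itpr3 (39.7%). The SD was 187 for Trpm5, 23.8 for Itpr2 and 20.1 for Plcb2 in FSChi files, and Itpr2 and Plcb2, next to each other in that order, overlapped. The same was true of Itpr3 and Calhm2, with SDs of 5.35 and 3.18, and of Itpr1 and Trpm4, with SDs of 1.94 and 2.01. The place of Calhm3 rested on 1 file with 36.4 TPM, the other 3 having 0, 2.15 and 1.76 TPM. In FSClow files Trpm5, Itpr2 and Plcb2 did not overlap one another, whereas Itpr1 overlapped Trpm4 and Trpm4 overlapped Itpr3. Of the single-library files, 14 of 19 correlated best with their own column of the count table. The file of FSChi replicate 3 was nearly empty, with 6807 expected counts, and was left out, and the files of FSChi replicates 4 and 5 and of EpCAM replicates 1 and 2 matched other columns of their own group. No file matched the count column of FSChi replicate 5, the library with the highest Itpr3 and Calhm1, so the RSEM and TPM values lack it. TPM values are therefore given by group only.

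The FSChi libraries spread widely in Itpr3, Calhm1 and Trpm4, and the amounts of other epithelial cell markers differed between them too. In replicates 1 to 5 the neuron marker sum was 3546, 20.1, 1432, 3283 and 1721 CPM. The secretory marker sum was 4349.6, 427, 2271, 9500.5 and 13153 CPM. Replicate 2, low in both, had the second highest Itpr3 of its group (339), the highest Calhm2 (53.6) and the lowest Trpm4 (2.55, which is 1 count). Replicate 5, with the highest secretory sum, had the highest Itpr3 (421) and the highest Calhm1 (204.8). Replicate 3 had the lowest Itpr3 (88.7) and Calhm1 (9.48). The part of other cells in the FSChi values was not tested.

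**Figure D4:**
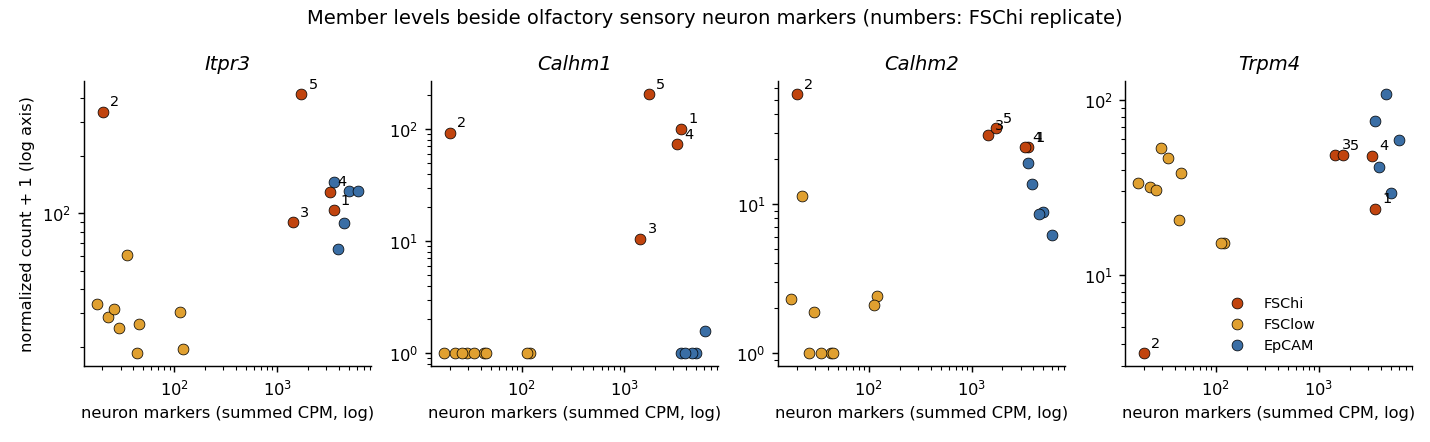
Authors' normalized count plus 1 of Itpr3, Calhm1, Calhm2 and Trpm4 (log axis) against the summed CPM of 10 olfactory sensory neuron markers (log axis) in each FSChi, FSClow and EpCAM library; numbers are FSChi replicates. FSChi replicate 2 lies at the low neuron sums of FSClow libraries, with Itpr3 at 339, Calhm1 at 91.9 and Calhm2 at 53.6, all above every FSClow library, and Trpm4 at 2.55, which is 1 count.

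Other genes of taste transduction and calcium handling were examined as a list of 60 genes, of which 43 were tested. In FSChi against EpCAM libraries 13 were higher and 10 lower, with a median log2 fold change of 0.04, against 13.5% higher and 12.2% lower and a median of -0.02 over all genes. In FSClow against EpCAM libraries 13 were higher and 19 lower, with a median of -0.08, against 22.0% higher and 23.1% lower and a median of 0.05 over all genes. In FSChi against FSClow libraries 21 were higher and 4 lower, with a median of 0.84, against 15.5% higher and 9.30% lower and a median of -0.01 over all genes. Upstream of Plcb2, the G protein subunit genes Gnat3, Gnb3, Gnb1 and Gng13 of the list were higher in FSChi than in FSClow libraries. Gnai2, the other G protein subunit gene of the list that was tested, did not differ there (-0.05 ± 0.24, edgeR adjusted p = 0.91). Gng13, the gamma subunit of taste cells, differed by 1.61 ± 0.32 on the log2 scale (edgeR adjusted p = 0.00061) and Gnb1, a widely expressed beta subunit, by 1.17 ± 0.22 (edgeR adjusted p = 0.00033). The mean normalized count of Gnb1 was highest in EpCAM libraries (2379), with 1338 in FSChi and 566 in FSClow libraries. For Gng13 it was 814 in FSChi, 252 in FSClow and 207 in EpCAM libraries. In FSClow against EpCAM libraries Gnb1 was lower, by -1.83 ± 0.22 (edgeR adjusted p = 2.4e-07), and Gng13 did not differ (0.53 ± 0.34, edgeR adjusted p = 0.22). Gnat3, the alpha subunit gustducin, averaged 6773 ± 3463 in FSChi libraries, 525.7 ± 152 in FSClow libraries and 5.92 ± 8.80 in EpCAM libraries (normalized counts, SD), and the log2 fold change of FSChi against FSClow was 3.61 ± 0.58 (edgeR adjusted p = 0.00011). Gnb3, the beta subunit paired with it, averaged 7010.8 ± 3857 in FSChi libraries, 13.3 ± 12.2 in FSClow libraries and 17.5 ± 20.8 in EpCAM libraries. Gnb3 was higher in FSChi than in FSClow libraries by 8.91 ± 0.73 on the log2 scale (edgeR adjusted p = 5.2e-08). In FSClow against EpCAM libraries it differed by -0.20 ± 0.66 (edgeR adjusted p = 0.83).

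Rgs21, a regulator of G protein signalling found in taste cells, averaged 322 ± 285 in FSChi libraries and 1.55 ± 3.13 in FSClow libraries, and it had 0 counts in EpCAM libraries. FSChi exceeded FSClow by 7.71 ± 0.80 on the log2 scale (edgeR adjusted p = 2.6e-06). Lrmp, a membrane protein that binds IP3 receptors, was higher than in EpCAM libraries by 9.48 ± 0.31 in FSChi and 8.81 ± 0.30 in FSClow libraries on the log2 scale (edgeR adjusted p = 3.0e-16 and 6.3e-16). Atp2a3, which pumps calcium back into the endoplasmic reticulum, was higher by 4.63 ± 0.46 and 5.03 ± 0.46 in the same comparisons (edgeR adjusted p = 5.3e-08 and 3.7e-09). Pde2a, a cyclic nucleotide phosphodiesterase, was higher by 4.54 ± 0.49 and 5.67 ± 0.50 (edgeR adjusted p = 2.1e-07 and 2.9e-09). Kcnq1, a potassium channel, was higher by 2.95 ± 0.35 and 1.68 ± 0.31 (edgeR adjusted p = 7.1e-07 and 9.4e-05). All 4 genes, like Trpm5, were thus higher in both eGFP+ groups than in EpCAM libraries.

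Voltage-gated sodium channel genes were among those that differed. Scn2a, Scn3a and Scn9a were higher in FSChi than in FSClow libraries by 6.84 ± 0.64, 4.15 ± 0.45 and 8.11 ± 0.76 on the log2 scale (edgeR adjusted p = 4.5e-08, 4.6e-07 and 1.9e-07). Scn2a was also higher in FSChi than in EpCAM libraries, by 2.20 ± 0.55 (edgeR adjusted p = 0.0048), and it reached 161 in FSChi replicate 2. Scn9a averaged 218 ± 187 in FSChi libraries, 0.744 ± 0.757 in FSClow libraries and 817 ± 134 in EpCAM libraries, and it was at 0 in the FSChi library with the lowest neuron sum. In FSClow against EpCAM libraries Scn3a, Scn9a and Scnn1g (an epithelial sodium channel subunit) were lower, by -5.41 ± 0.45, -9.83 ± 0.76 and -8.81 ± 0.75 (edgeR adjusted p = 8.2e-10, 1.5e-09 and 1.2e-09).

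The genes whose log2 CPM followed each of 4 members most closely over the 19 libraries are given as a description, since all libraries share the 3 groups. For Trpm5 these were Plcb2 (Pearson r = 0.989), Sh2d7 (0.989), Alox5 (0.987), Mn1 (0.986) and Pou2f3 (0.986), among 12659 genes. For Plcb2 they were Trpm5 (0.989), Cd300lf (0.985), Plaat3 (0.984), Tincr (0.984) and Pou2f3 (0.981). For Itpr2 they were Fmn1 (0.991), Kndc1 (0.982), Dscaml1 (0.981), Nav2 (0.980) and Adgrg6 (0.979). For Itpr3 they were Tmem50b (0.948), Scn2a (0.942), Tnfaip8 (0.923), Krt19 (0.918) and Col9a1 (0.912). Among the members themselves, Itpr3 followed Calhm2 (0.80) and Calhm1 (0.74) and ran against Itpr2 (-0.54), while Itpr2 followed Trpm5 (0.91).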

How the data were processed

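The tools named, per the submitters' processing notes, are DESeq2, featureCounts, RSEM 1.2.21, STAR 2.4.2a and Picard 1.1073, with build mm10; their roles are not given in the sources used here. The authors deposited raw counts for 27179 genes and a normalized signal for 26221, each a count divided by a library size factor: 100% of values came out whole within 0.01 when multiplied back, and reads so recovered gave 1622 higher and 1750 lower genes in FSChi against EpCAM, 2573 and 3282 in FSClow against EpCAM, and 2132 and 1133 in FSChi against FSClow. Expected counts from RSEM, rounded here, and TPM are in the files of single libraries, per the file headers.

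Counts were tested with edgeR 4.0.16 in R 4.3.3: filterByExpr by group, TMM, a robust quasi-likelihood fit of group over all 19 libraries, and Benjamini-Hochberg adjustment over 13340 genes, with 0.05 as threshold. SEs come from the F statistic. Levels are the authors' normalized counts; total counts of 1348428 to 7477695 limit the precision of members with few reads. limma 3.58.1 and DESeq2 1.42.0 served as alternatives, with log2 values computed from the deposited TPM and signal. The test was also run on simulated counts with the same dispersion for every gene, which does not cover genes at 0 in a whole group, such as Calhm1.

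The members, the gene lists and the naming rule were chosen with earlier results of these data known. All 9 members are named, with at most 6 called genes of the pathway list per comparison, by smallest p. Some genes picked for a comparison were also given in others. Outside this rule, the tested G protein subunit genes of that list were all named for FSChi against FSClow libraries, whatever their p. Gng13 and Gnb1 were also given for FSClow against EpCAM libraries. The 5 genes most like each of 4 members were named too, and other relatives of the members were named for their families. Symbols came from RefSeq for 25275 genes. Promoters were found for 6 members, and protein sequences were not used here.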

Additional observations from a re-analysis of the deposited data

Results flagged for a closer look

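Of 23 groups of member values examined, 4 held a library far from the rest of its group. The rule was a gap to the next library, over the range of the group, above 0.71 or 0.493 by group size. Its rate of about 1 in 20 by chance holds for normally distributed values. These are unlogged counts, some near 0, so the 4 are not read as an excess. For Calhm1 the ratio is 1 by construction. Itpr3 was 59.7 in FSClow replicate 6, above the other FSClow libraries and below every FSChi and EpCAM library. Calhm1 was 0.576 in EpCAM replicate 4, which is 1 count, and 0 in the other EpCAM libraries. Calhm2 was 53.6 in FSChi replicate 2 and 10.3 in FSClow replicate 5, each the highest of its group. All are normalized counts.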

How the results depend on the processing

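Of 16 called member differences, 12 kept their direction and call in every alternative that tested them, and none reversed. The members higher in FSChi than in EpCAM libraries numbered 3, not 5, with RSEM counts and with the log2 authors' normalized values in limma: Calhm1 did not pass the filter there, leaving 7 members tested, and Itpr3 lost its call. The members lower in that comparison numbered 0, not 1, with log2(TPM + 1), with log2(TPM + 0.1) and with only the libraries that match their own file. In FSClow against EpCAM libraries 1 member was lower, not 2, with the replicate block and with matching libraries only. With only those 2 groups in the fit, 6 members were tested and the 2 lower were Itpr3 and Trpm4, since Calhm2 did not pass the filter. In FSChi against FSClow libraries 1 was lower, not 2, with the replicate block, RSEM counts, either TPM setting and matching libraries only. The cause of the lost calls was not tested. Values that changed sign were uncalled: Itpr1 in FSClow against EpCAM (0.29 and 0.35 with the TPM settings), Calhm1 in FSClow against EpCAM (0.11 with DESeq2), Plcb2 in FSChi against FSClow (-0.24 with both TPM settings), and Trpm4 in FSChi against FSClow. Trpm4 gave -0.033 with the block, -0.32 and -0.62 with TPM, -0.22 with the authors' normalized values, -1.05 with matching libraries, and -0.013 to 0.35 when 1 library was left out.

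With the replicate number as a block, 1398 genes were higher and 584 lower in FSChi than in FSClow libraries, against 2069 and 1241 without it. With matching libraries only, FSChi against EpCAM gave 1048 higher and 790 lower genes, against 1797 and 1624. In that setting only FSChi replicates 1 and 2 and EpCAM replicates 3 to 5 remain of these groups. Calhm2 in FSClow against EpCAM lost its call with the block (adjusted p = 0.064), as did Itpr1 in FSChi against FSClow (adjusted p = 0.088) and Itpr3 in FSChi against EpCAM (adjusted p = 0.12), while Calhm2 in FSChi against EpCAM passed (1.90, adjusted p = 0.043). Same-numbered libraries correlated between -0.17 and 0.37, and not every library correlated best with its own number, so the numbers were not taken as pairs. Depth limits Calhm1, Calhm2 and Calhm3 most, with few or no counts outside the FSChi group.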
